A study of Homo sapiens with 12 samples.

Results

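The genes described here are 10 components of the protein folding machinery of the endoplasmic reticulum (ER) and of the unfolded protein response (UPR) that controls it. They were taken by gene symbol from a table of 26125 genes, and all 10 were found: the chaperones HSPA5, HSP90B1 and CALR, the folding enzyme PDIA4, the co-chaperones SDF2L1, DNAJB9 and DNAJC3, the degradation components HERPUD1 and SEL1L, and the transcription factor XBP1. They were measured by mRNA sequencing in Caco-2 cells, which derive from a human colon adenocarcinoma and differentiate in culture into a monolayer resembling enterocytes. Cells were kept for 21 days on permeable inserts and then exposed from the apical side in a buffered salt solution. There were 4 groups of 3 libraries: untreated cells (control), Bacillus subtilis CW14, a probiotic bacterium (CW14), 15 µmol/L ochratoxin A, a fungal toxin of stored foods (OTA), and both together (combined). All groups share the cell line, the culture time and the inserts. The labels give no exposure time and do not say whether the bacteria were alive at collection or whether the libraries came from separate cultures, and where they did not, each p-value reflects only how much these libraries vary, perhaps for technical reasons. HSPA5, DNAJB9, HERPUD1 and XBP1 were lower with OTA than in control, and the other 6 genes did not pass the test in that comparison.

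When unfolded proteins collect in the ER, 3 membrane sensors, IRE1, PERK and ATF6, start the UPR. IRE1 splices XBP1 mRNA into the form that encodes an active transcription factor, ATF6 is cut to release another, and both turn on genes for chaperones, folding enzymes and the degradation of misfolded proteins, while PERK slows translation and favours synthesis of ATF4. HSPA5 (BiP), the Hsp70 of the ER, also holds the sensors inactive, so its level is a common readout of the response in secretory and absorptive epithelia.

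Chaperone promoters are known for short elements at which ATF6 and the CCAAT-binding factor NF-Y act. The sites found here are shown because, of the genes that share them, some were called lower with OTA and others were not called. With CW14 alone, the mean of every gene was below control, with a site or without one (SEL1L, which has none, was at 99.9% of control). Only HSPA5 was called. RefSeq promoter windows on GRCh38.p14, from 250 bases before to 50 after the start of the gene, were found for 10 of 10 genes (12 windows, since PDIA4 and XBP1 have a pair each). The ER stress element (ERSE), CCAAT and CCACG separated by 9 bases of any kind, was searched on both strands, as was ERSE-II, in which ATTGG and CCACG are separated by 1 base. In the sites below, printed 5′ to 3′ on the strand that carries the element, the fixed bases are in capitals.
HSPA5, ERSE: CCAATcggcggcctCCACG
HSP90B1, distal ERSE: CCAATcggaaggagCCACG
HSP90B1, proximal ERSE: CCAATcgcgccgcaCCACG
CALR, ERSE: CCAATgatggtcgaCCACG
XBP1, ERSE: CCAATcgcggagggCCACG
HERPUD1, ERSE-II: ATTGGgCCACG
SDF2L1, ERSE-II: ATTGGtCCACG
Relative to the start of the gene, the HSPA5 site lay at -66 to -48, the HSP90B1 sites at -194 to -176 and -89 to -71, and the XBP1 site at -52 to -34. The CALR site lay at -225 to -207, the HERPUD1 site at -117 to -107 and the SDF2L1 site at -188 to -178. The proximal HSP90B1 site and those of CALR and SDF2L1 ran on the strand opposite to the gene. ERSE was present in the windows of 4 of the 10 genes and in 0.0769% of all 35116 promoter windows, and ERSE-II in those of 2 genes and in 0.0541% of all windows. DNAJB9, DNAJC3, PDIA4 and SEL1L had neither. ERSE contains the motifs CCAAT, found in 34.6% of all windows, and CCACG, found in 38.1%. The core of the XBP1-binding UPR element, TGACGTGG (0.729% of windows), and the cAMP element, TGACGTCA (1.85%), were in no window of the 10 genes. The ATF4 element TGATGNAA (3.62%) was in that of HERPUD1 alone, at -176 to -169 on the opposite strand. A match describes these letters and shows no binding.

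The 250 bases before the start are given for 5 genes: HSPA5, HERPUD1 and XBP1, which carry an element and were lower with OTA, HSP90B1, which carries a pair of them and was not, and DNAJB9, which carries none and was lower. Of the genes not printed, CALR and SDF2L1 carry an element and PDIA4, DNAJC3 and SEL1L carry none. None of these was called with OTA, and the part of the elements was not tested. Each printed sequence is on the strand of its gene with ERSE or ERSE-II in capitals. The windows were chr9:125241344-125241593 (minus strand) for HSPA5, chr16:56931892-56932141 (plus) for HERPUD1, chr22:28800570-28800819 (minus) for XBP1, chr12:103930160-103930409 (plus) for HSP90B1 and chr7:108569624-108569873 (plus) for DNAJB9.
HSPA5: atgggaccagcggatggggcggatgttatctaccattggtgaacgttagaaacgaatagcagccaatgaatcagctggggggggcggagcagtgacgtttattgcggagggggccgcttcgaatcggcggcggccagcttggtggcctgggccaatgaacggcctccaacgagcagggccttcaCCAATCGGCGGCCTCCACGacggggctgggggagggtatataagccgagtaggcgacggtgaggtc
HERPUD1: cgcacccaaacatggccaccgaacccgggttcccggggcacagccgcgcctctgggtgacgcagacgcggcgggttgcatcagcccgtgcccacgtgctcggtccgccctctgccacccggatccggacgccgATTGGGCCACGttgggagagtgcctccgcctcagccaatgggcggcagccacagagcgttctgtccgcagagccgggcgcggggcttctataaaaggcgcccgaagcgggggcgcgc
XBP1: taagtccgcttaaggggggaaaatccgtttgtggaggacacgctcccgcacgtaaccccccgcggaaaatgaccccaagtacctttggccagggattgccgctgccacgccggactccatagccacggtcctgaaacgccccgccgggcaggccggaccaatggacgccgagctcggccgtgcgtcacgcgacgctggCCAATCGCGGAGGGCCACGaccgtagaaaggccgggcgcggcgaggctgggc
HSP90B1: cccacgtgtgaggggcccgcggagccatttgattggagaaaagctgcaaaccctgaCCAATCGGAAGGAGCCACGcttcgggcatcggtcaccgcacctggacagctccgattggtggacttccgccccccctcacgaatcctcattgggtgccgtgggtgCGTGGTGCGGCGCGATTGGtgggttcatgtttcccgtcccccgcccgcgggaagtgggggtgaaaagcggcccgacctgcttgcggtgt
DNAJB9: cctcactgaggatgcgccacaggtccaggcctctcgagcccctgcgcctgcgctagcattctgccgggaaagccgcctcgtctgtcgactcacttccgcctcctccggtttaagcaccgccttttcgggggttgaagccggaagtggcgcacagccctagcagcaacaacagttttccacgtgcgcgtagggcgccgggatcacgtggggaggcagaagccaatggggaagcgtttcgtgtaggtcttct

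Levels are in FPKM, fragments scaled to the length of the transcript and to the depth of the library. How the deposited values were scaled between libraries is not stated, so they are compared as deposited. The number of calls over all genes changed under other scalings. Differences between groups are log2 differences on the log2(FPKM + 1) scale with their standard error (SE), from limma over the 12928 genes whose mean over all libraries reached 1 FPKM, and a gene was called at a Benjamini-Hochberg adjusted p under 0.05. All 10 genes were among those tested. Combined replicate 3 stood apart: its residual SD over all genes was 0.721, where the other libraries ran from 0.374 to 0.520, its relative depth was 0.470 where they ran from 0.642 to 1.60, and its deviation from the gene means followed transcript GC content (Spearman rho 0.496 across 11429 genes, against -0.326 to 0.243). Counts of called genes and the main differences that involve the combined group are therefore given with and without it. The same rho was also positive in combined replicates 1 (0.243) and 2 (0.0847). In every library outside that group it was negative, from -0.326 to -0.0327. Deviations from a mean over all 12 libraries balance each other, so these negative signs are in part tied to the positive ones. Since rho was positive in all 3 combined libraries, leaving out replicate 3 need not remove a GC difference between the combined group and the others. The part of such a difference in the results was not tested. Of 16 enterocyte markers, 14 had a mean of at least 1 FPKM, while CDX1 and SI were under 1 FPKM in every library. Of 15 markers of other cell types, 5 reached that mean, and COL1A2 and PTPRC were at 0 in all 12 libraries. Summed over the 15, these markers ran from 115 to 151 FPKM in control, 94.9 to 122 in CW14, 167 to 204 in OTA and 102 to 130 in combined. The sum followed CD68, at means of 80.8, 71.8, 116 and 61.8 FPKM in that order, and LYZ, at 44.9, 30.8, 62.7 and 46.6. The next highest group mean was that of VIM with OTA, at 4.29 FPKM. The sum thus does not measure a share of other cells, and the part of these markers in the results was not tested. In such bulk RNA, fewer cells that express a gene and less RNA per cell cannot be told apart.

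**Figure D1:**
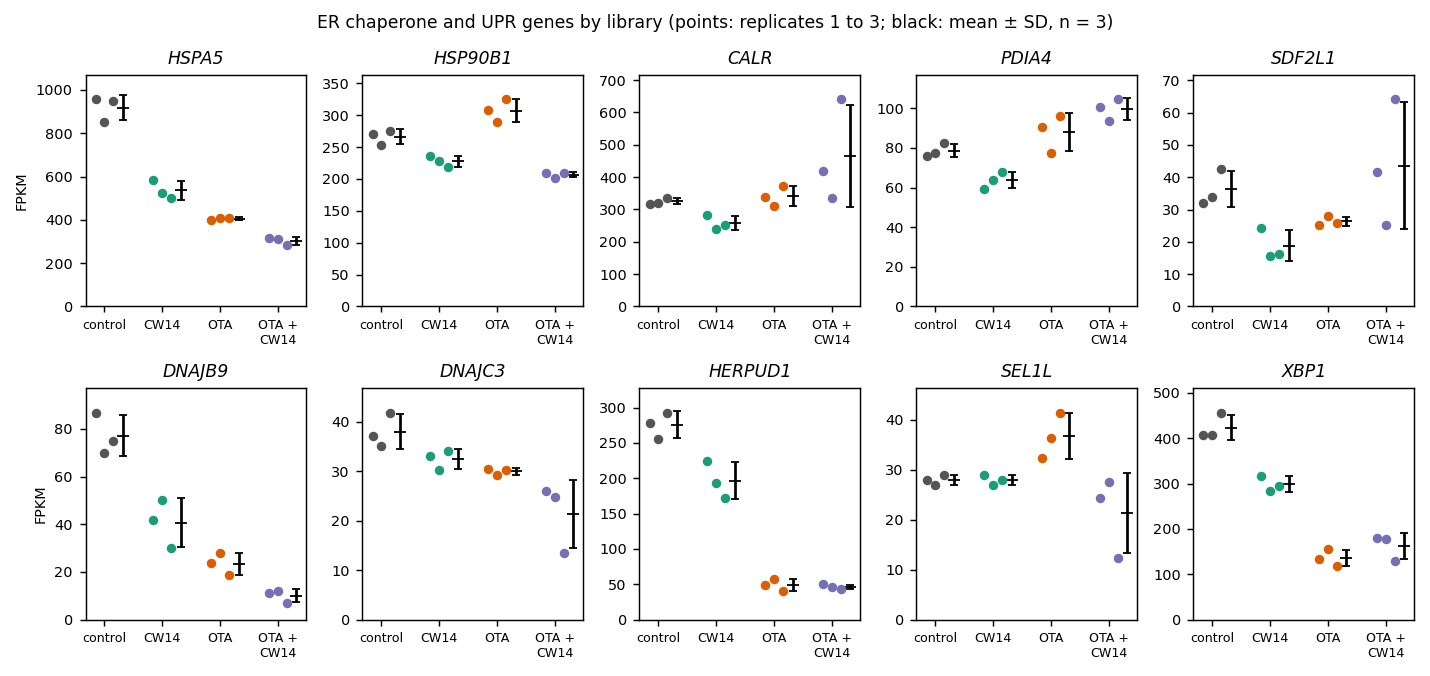
FPKM of the 10 genes in each of the 12 libraries, 1 panel a gene, with points for replicates 1 to 3 of control, CW14, OTA and combined (OTA + CW14), and the mean ± SD (n = 3) in black; all axes start at 0. HSPA5, DNAJB9, HERPUD1 and XBP1 are highest in the 3 controls, while HSP90B1 and SEL1L are highest in OTA and combined replicate 3 lies apart for CALR, SDF2L1, DNAJC3 and SEL1L.

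HSPA5 (hg19 chr9:127997125-128003666) was the most abundant of the 10 in untreated cells and was lower in every treated group. It measured 957, 854 and 947 FPKM in the control replicates, 585, 522 and 500 with CW14, 399, 407 and 410 with OTA, and 317, 310 and 281 in the combined group. The 4 groups formed a ladder with no overlap between any pair, from control down through CW14 and OTA to combined. Against control, HSPA5 fell with OTA by 1.18 on the log2 scale (SE 0.113, adjusted p = 2.39e-05), to 44.1% of the control mean. It fell with CW14 by 0.78 (SE 0.113, adjusted p = 0.0107), to 58.3%. With both agents it fell further than with OTA, by 0.42 (adjusted p = 0.0283) or, without combined replicate 3, by 0.37 (adjusted p = 0.0153). The CW14 call was lost when any single control library or CW14 replicate 3 was left out and under quantile normalization, with adjusted p up to 0.247. The step from OTA to combined was lost without any single OTA library, under quantile normalization, and when only those 2 groups were fitted, with adjusted p up to 0.485.

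Like HSPA5, HSP90B1 (GRP94, hg19 chr12:104324110-104341708), the Hsp90 of the ER, has ERSE in its promoter, and the part of the element in the levels was not tested. HSP90B1 was not lower with OTA as HSPA5 was. Its levels were 271, 253 and 275 FPKM in control, 236, 228 and 219 with CW14, 308, 289 and 325 with OTA, and 210, 202 and 210 in combined. OTA libraries were the highest and combined libraries the lowest, and neither group overlapped another. The OTA difference from control was 0.21 (SE 0.103, 95% interval -0.02 to 0.43, adjusted p = 0.198). The same difference passed the test without combined replicate 3 (adjusted p = 0.0471), since that library enters the shared estimate of spread. Adding CW14 to OTA lowered HSP90B1, by 0.57 on the log2 scale (SE 0.103, adjusted p = 0.00668), and by 0.58 without combined replicate 3. This fall was not called under quantile normalization or when only OTA and combined were fitted, with adjusted p up to 0.0810. The difference between CW14 and control was -0.22 (adjusted p = 0.752).

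The ratio of HSPA5 to HSP90B1 within a library, which does not depend on the scaling between libraries, was 3.45 ± 0.0777 in control (SD, n = 3), 2.35 ± 0.109 with CW14, 1.32 ± 0.0760 with OTA and 1.46 ± 0.106 in combined. Control libraries spanned 3.38 to 3.53 and OTA libraries 1.26 to 1.41, so the fall of HSPA5 was not shared by its partner chaperone. The ranges of OTA and combined, 1.34 to 1.54, overlapped. Of the FPKM summed over the 10 genes, HSPA5 made up 37.2% ± 1.01 in control, 31.5% ± 0.488 with CW14, 28.1% ± 0.500 with OTA and 22.1% ± 3.10 in combined.

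CALR (calreticulin, hg19 chr19:13049412-13055304), a calcium-binding chaperone of glycoproteins, and PDIA4 (hg19 chr7:148700152-148725782), a protein disulfide isomerase, did not differ detectably between OTA and control. CALR measured 318, 321 and 336 FPKM in control, 283, 239 and 253 with CW14, 338, 311 and 373 with OTA, and 420, 337 and 640 in combined. OTA and control overlapped for CALR, with a difference of 0.06 (95% interval -0.36 to 0.49, adjusted p = 0.855), and the combined group ran widest because of replicate 3. PDIA4 measured 76.1, 77.7 and 82.2 FPKM in control, 59.5, 63.9 and 67.6 with CW14, 90.7, 77.7 and 96.3 with OTA, and 101, 93.8 and 105 in combined. For PDIA4 the CW14 libraries lay below all others and OTA overlapped both control and combined. Between combined and CW14, CALR was higher by 0.80 (adjusted p = 0.00911) and by 0.54 without combined replicate 3 (adjusted p = 0.00457), and PDIA4 by 0.64 (adjusted p = 0.00200) and by 0.61 (adjusted p = 0.00131). The CALR call was lost when those groups were fitted alone (adjusted p = 0.0813). PDIA4 was also called higher in combined than in control (0.34, SE 0.117, adjusted p = 0.0481), close to the threshold: 14 of the 24 alternative settings lost that call.

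Among the co-chaperones, DNAJB9 (ERdj4, hg19 chr7:108202586-108215294), which binds HSPA5 and restrains IRE1, had the widest range. It measured 86.8, 69.8 and 74.9 FPKM in control, 41.7, 50.3 and 30.1 with CW14, 23.7, 28 and 18.8 with OTA, and 11.1, 12.0 and 7.06 in combined. Again no pair of groups overlapped, in the order seen for HSPA5. DNAJB9 fell with OTA by 1.68 (SE 0.227, adjusted p = 3.24e-04), to 30.5% of control, and the combined group lay 1.16 below OTA (SE 0.227, adjusted p = 0.00895), or 0.95 below it without combined replicate 3 (difference -0.95, adjusted p = 0.00983). That second step was not called when only OTA and combined were fitted (adjusted p = 0.0726). From control to combined the mean fell to 13%. The CW14 difference from control, -0.93, had an adjusted p of 0.198, and of 0.0413 once combined replicate 3 was left out.

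DNAJC3 (P58IPK, hg19 chr13:96329391-96447243), an HSPA5 co-chaperone that also inhibits PERK, passed the test only in comparisons of the combined group in the fit of all 12 libraries. It measured 37.2, 35.0 and 41.8 FPKM in control, 33.1, 30.2 and 34.2 with CW14, 30.4, 29.2 and 30.3 with OTA, and 25.9, 24.8 and 13.4 in combined. Every OTA library lay below every control, but the difference was -0.33 (SE 0.202, adjusted p = 0.296), and it passed the test without combined replicate 3 (adjusted p = 0.0143). DNAJC3 was called lower in combined than in control by 0.85 on the log2 scale (difference -0.85, adjusted p = 0.00897), a difference of -0.56 without combined replicate 3 (adjusted p = 0.00164). Against CW14 it was lower in combined, with a difference of -0.64 (adjusted p = 0.0314), or -0.35 without that library (adjusted p = 0.0205), a call lost in 7 of 24 alternatives. The ratio of DNAJB9 to DNAJC3 went from 2.04 ± 0.274 in control to 1.27 ± 0.391 with CW14, 0.787 ± 0.171 with OTA and 0.481 ± 0.0487 in combined, so the more abundant of the pair in untreated cells became the less abundant with OTA.

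SDF2L1 (hg19 chr22:21996540-21998588), which keeps ER proteins from aggregating as part of the HSPA5 cycle, measured 32.1, 34.0 and 42.6 FPKM in control, 24.3, 15.7 and 16.4 with CW14, 25.3, 28 and 25.7 with OTA, and 41.6, 25.2 and 64.1 in combined. The CW14 and OTA libraries all lay below control, while combined libraries ran from the OTA level to above every control. The differences from control were -0.93 for CW14 (adjusted p = 0.401) and -0.44 for OTA (adjusted p = 0.312), neither called. SDF2L1 was higher in combined than in CW14 by 1.10 (SE 0.275, adjusted p = 0.0107), and by 0.78 without combined replicate 3 (adjusted p = 0.0195). This call was lost when those groups were fitted alone (adjusted p = 0.0801).

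HERPUD1 (hg19 chr16:56966000-56977793), a membrane protein that assembles the ER-associated degradation complex and is itself short-lived, had the largest OTA difference of the 10. It measured 278, 255 and 293 FPKM in control, 225, 194 and 172 with CW14, 49.0, 58.0 and 40.9 with OTA, and 49.9, 46.0 and 43.7 in combined. The libraries fell into a high pair of groups without OTA and a low pair with it, and OTA and combined overlapped. HERPUD1 fell with OTA, with a difference of -2.47 (SE 0.148, adjusted p = 1.03e-06), to 17.9% of control. Adding CW14 to OTA left a difference of -0.07 (95% interval -0.39 to 0.25, adjusted p = 0.777, and -0.03 without combined replicate 3), and CW14 alone one of -0.49 from control (adjusted p = 0.426).

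SEL1L (hg19 chr14:81937889-82000205), the adaptor of the HRD1 ubiquitin ligase and thus a partner of HERPUD1 in the same complex, did not follow it. It measured 27.9, 27.0 and 28.9 FPKM in control, 28.9, 26.9 and 27.9 with CW14, 32.3, 36.4 and 41.4 with OTA, and 24.3, 27.5 and 12.3 in combined. Every OTA library lay above every other library, and control and CW14 overlapped throughout. The OTA difference was 0.38 (SE 0.229, adjusted p = 0.294), and 0.38 with an adjusted p of 0.0141 without combined replicate 3. SEL1L was lower in combined than in OTA, with a difference of -0.82 (SE 0.229, adjusted p = 0.0333) or, without combined replicate 3, of -0.48 (adjusted p = 0.0131). This call was lost in 7 of the 24 alternatives, among them each one that left out an OTA library or control replicate 2. The HERPUD1 to SEL1L ratio was 9.85 ± 0.349 in control, 7.05 ± 0.824 with CW14, 1.37 ± 0.329 with OTA and 2.42 ± 0.987 in combined. OTA libraries spanned 0.988 to 1.59, so transcripts of the partners were near parity there.

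**Figure D2:**
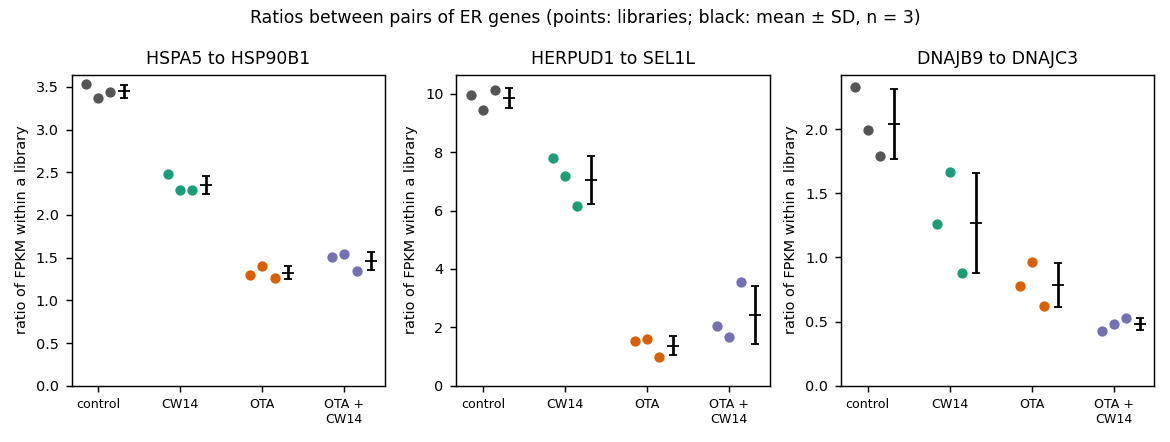
Ratio of FPKM within each library for HSPA5 to HSP90B1, HERPUD1 to SEL1L and DNAJB9 to DNAJC3, with points for libraries and the mean ± SD (n = 3) in black. Each ratio is highest in control, at means of 3.45, 9.85 and 2.04, and in all 3 panels the OTA and combined libraries lie below the control libraries.

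XBP1 (hg19 chr22:29190546-29196560) measured 407, 408 and 456 FPKM in control, 317, 283 and 296 with CW14, 135, 155 and 119 with OTA, and 180, 177 and 128 in combined. Control libraries were highest, CW14 next and the groups with OTA lowest, with overlap between OTA and combined only. XBP1 fell with OTA by 1.64 (SE 0.151, adjusted p = 1.83e-05), to 32.2% of control. The values are per gene, so spliced and unspliced XBP1 mRNA cannot be told apart. The CW14 difference was -0.50 (adjusted p = 0.425, and 0.0413 without combined replicate 3). Combined libraries differed from OTA by 0.24 (SE 0.151, adjusted p = 0.289); without combined replicate 3 the difference was 0.40 (adjusted p = 0.0277), which made XBP1 the only one of the 10 called higher in combined than in OTA in that fit.

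In untreated cells the order by level was HSPA5, XBP1, CALR, HERPUD1, HSP90B1, PDIA4, DNAJB9, DNAJC3, SDF2L1 and SEL1L, from 919 ± 56.9 to 27.9 ± 0.975 FPKM. The neighbours HERPUD1 and HSP90B1, PDIA4 and DNAJB9, and DNAJC3 and SDF2L1 overlapped between libraries. With OTA, HERPUD1 dropped from the fourth place to the sixth and DNAJB9 from the seventh to the last, at 23.5 ± 4.65 FPKM. In the combined group CALR, at 466 ± 157 FPKM, stood above HSPA5, at 303 ± 18.7, in all 3 libraries, the reverse of control, where the means were 325 ± 9.69 and 919 ± 56.9.

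With OTA against control, 4 of the 10 genes were called lower (HSPA5, DNAJB9, HERPUD1 and XBP1) and 0 higher, where 12.9% of all genes tested were called lower and 4.82% higher. Median-centring shifted the median of all genes by 0.11 on the log2 scale and turned that background into 1153 genes higher and 1342 lower, in place of 623 and 1665, and left the same 4 calls among the 10. The median difference of the 10 was -0.38, and that of all genes 0.03. The 4 calls held in all 24 alternative settings. Without combined replicate 3, HSP90B1 and SEL1L were called higher as well and DNAJC3 lower, with 14.7% of all genes called higher and 19.0% lower.

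With CW14 alone, 1 of the 10 was called lower (HSPA5) and 0 higher, where 0.147% of all genes were called lower and 0.217% higher. The median of the 10 was -0.41 and that of all genes -0.02. Of the 10, 7 had an unadjusted p under 0.05 by limma. The share of all genes with such a p was not counted, so the 7 are not read as a result about the 10. Libraries of CW14 lay below all controls for 9 of the 10 genes, all but SEL1L. The share of all genes separated in this way was not counted either, so the 9 are not read as a result about the 10. Of these 9, only HSPA5 was called in the fit of all 12 libraries. Without combined replicate 3, 3 of the 10 were called, HSPA5, DNAJB9 and XBP1, all lower, where 0.526% of all genes were called lower.

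**Figure D3:**
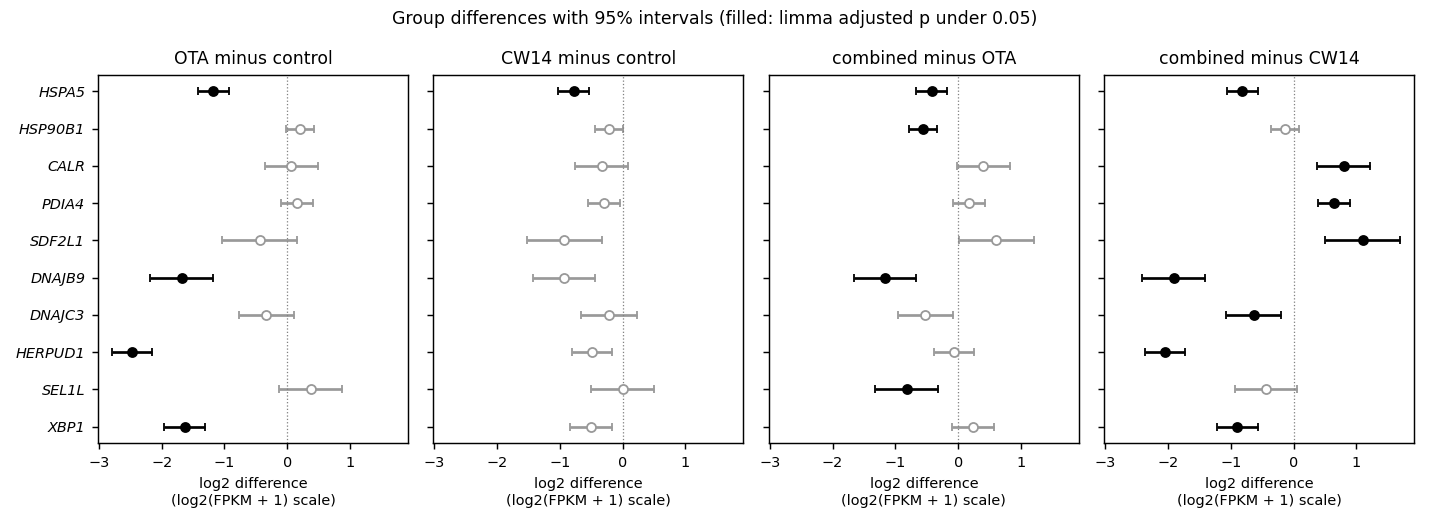
Log2 differences on the log2(FPKM + 1) scale with 95% intervals for the 10 genes in 4 comparisons, filled where limma's adjusted p was under 0.05. HERPUD1 (-2.47), DNAJB9 (-1.68), XBP1 (-1.64) and HSPA5 (-1.18) are the filled points for OTA minus control, HSPA5 is the single one for CW14 minus control, and the last panel holds filled points on both sides of 0.

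When CW14 was added to OTA, 4 of the 10 fell relative to OTA alone (HSPA5, HSP90B1, DNAJB9 and SEL1L) and 0 rose, where 8.22% of all genes were called lower and 7.79% higher. The median of the 10 was -0.25 and that of all genes 0.03. These 4 remained called without combined replicate 3, and XBP1 joined them as higher. None of the 4 genes that were lower with OTA was called higher in the combined group in the fit of all 12 libraries. When only the OTA and combined libraries were fitted, 0 of the 10 were called, and 70 of all genes in place of 2070. In the fit of all libraries, 6 of the 10 had an unadjusted p under 0.05, a count not made over all genes and not read as a result.

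Between combined and control, 1 of the 10 was called higher (PDIA4) and 6 lower (HSPA5, HSP90B1, DNAJB9, DNAJC3, HERPUD1 and XBP1), where 12.0% and 16.8% of all genes were. The largest differences were those of DNAJB9, -2.84 (SE 0.227, adjusted p = 5.08e-06), and HERPUD1, -2.54 (SE 0.148, adjusted p = 3.80e-07). They were -2.63 and -2.50 without combined replicate 3, and the same 7 genes were called. The call of HSP90B1 was lost in 5 of the 24 alternatives and that of DNAJC3 when only those groups were fitted. The median of the 10 was -0.65 and that of all genes 0.02. Between combined and CW14, 3 were called higher (CALR, PDIA4 and SDF2L1) and 5 lower (HSPA5, DNAJB9, DNAJC3, HERPUD1 and XBP1), where 14.8% and 17.5% of all genes were. The median of the 10 was -0.54, and the same 8 genes were called without combined replicate 3. These comparisons share libraries with the ones above, so their calls are not separate evidence.

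The interaction asked whether OTA changed a gene by another amount when CW14 was present. By limma, 0 of the 10 were called in either direction, where 1.85% of all genes were called higher and 1.49% lower. An unadjusted p under 0.05 was found for 7 of the 10, a count not made over all genes and not read as a result. SDF2L1 came nearest, with an interaction of 1.54 (SE 0.389, adjusted p = 0.0518), followed by XBP1 with 0.74 (SE 0.214, adjusted p = 0.0697). Without combined replicate 3, 3 of the 10 were called, all positive: SDF2L1 at 1.22 (adjusted p = 0.0269), XBP1 at 0.90 (adjusted p = 0.00734) and HSPA5 at 0.41 (adjusted p = 0.0477), where 6.05% of all genes were called higher and 6.29% lower. For XBP1, the OTA difference in that fit was -1.64 without the bacteria and -0.74 with them, and for HSPA5 -1.18 and -0.77. In the fit of all 12 libraries, where neither interaction was called, the differences with the bacteria were -0.89 and -0.82.

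The deviation of combined replicate 3 from the other combined libraries differed widely among the 10 genes. On the log2 scale it was 0.96 above their mean for SDF2L1, whose transcripts average 65.5% GC, and 0.77 above it for CALR (54.5% GC). It was -1.01 for SEL1L (43.7% GC), -0.87 for DNAJC3 (40.6% GC) and -0.64 for DNAJB9 (40.4% GC). The remaining 5 lay between -0.47 (XBP1, 50.1% GC) and 0.10 (PDIA4, 53.1% GC), with HSPA5 at -0.15. Over all genes, the median deviation was -0.43 in the fifth of genes with the lowest GC and 0.53 in the fifth with the highest. The genes whose combined values rest most on this library were thus SDF2L1, CALR, SEL1L and DNAJC3, and the part of GC content in their differences was not tested.

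**Figure D4:**
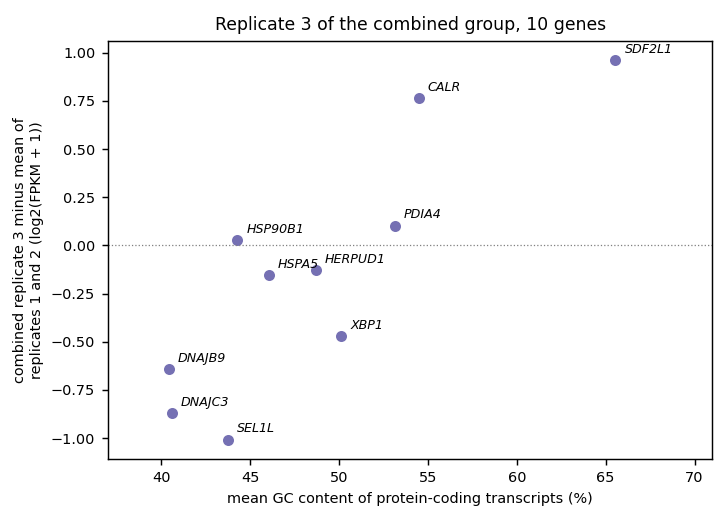
Deviation of combined replicate 3 from the mean of combined replicates 1 and 2 (log2(FPKM + 1) scale) against the mean GC content of each gene's protein-coding transcripts in percent, 1 point for each of the 10 genes. The points run from DNAJB9 (40.4% GC, -0.64) and SEL1L (43.7% GC, -1.01) to SDF2L1 (65.5% GC, 0.96).

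Other genes of the same organelle were read from 7 lists, 162 genes of which 160 were tested. With OTA, 10 of these rose (6.25%) and 27 fell (16.9%), where 4.82% of all genes tested were called higher and 12.9% lower. Leaving out combined replicate 3 made this 48 that rose and 34 that fell, 51.2% in all, where 33.8% of all genes were called. Of 28 tested ER chaperones and folding enzymes, 5 rose and 2 fell, with a median of 0.32 against 0.03 over all genes. PRDX4, an ER peroxiredoxin, rose from 22.9 to 35.9 FPKM (0.63, adjusted p = 0.0326, a call lost without any single control or OTA library), and TXNDC11 fell from 24.0 to 14.2 (-0.72, adjusted p = 0.00857). The list's count of 7 (25.0%, against 17.7% of all genes) became 18 of 28 (64.3%, against 33.8%) without combined replicate 3, 13 higher and 5 lower. By its median this list lay on the side of HSP90B1 (0.21, not called) rather than of HSPA5 (-1.18), with calls in both directions.

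Of 28 ER-associated degradation genes, 1 rose and 7 fell with OTA, where 4.82% and 12.9% of all genes did, with a median of 0.02. RNF139, an ER ubiquitin ligase, fell from 24.3 to 7.86 FPKM (-1.52, adjusted p = 1.80e-04), and FAF2, which recruits the extraction ATPase to the ER membrane, from 51.1 to 23.4 (-1.10, adjusted p = 6.54e-04). UBE2G2, a ubiquitin-conjugating enzyme of the pathway, rose from 27.8 to 41.0 (0.55, adjusted p = 0.0248), a call also lost without any single control or OTA library. HERPUD1 therefore differed by more than any called gene of this list, while 20 of the 28 were not called. The list's count was 16 in place of 8 without combined replicate 3 (57.1%, against 33.8% of all genes), 7 higher and 9 lower.

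Of 16 UPR sensors and regulators tested, 0 rose and 3 fell (18.8%, near the 17.7% of all genes called). Without combined replicate 3, 3 rose and 3 fell (37.5%, against 33.8% of all genes). EIF2AK3, which encodes PERK, fell from 20.2 to 6.88 FPKM (-1.43, adjusted p = 0.00653), and NFYA, a subunit of the factor that binds CCAAT in ERSE, from 15.8 to 6.25 (-1.22, adjusted p = 0.00217). ERN1, which encodes IRE1, and ATF6 were read for their roles, outside the rule that named the other genes. ERN1 was at 1.02 ± 0.365 FPKM in control and 1.17 ± 0.518 with OTA (adjusted p = 0.825), and ATF6 at 8.09 ± 0.964 and 7.66 ± 0.966 (adjusted p = 0.803). Of the 3 sensor transcripts, PERK's was the one that passed the test. ERN1 lay close to the filter limit of 1 FPKM, where a change is hard to detect on the log2(FPKM + 1) scale. In the PERK and ATF4 arm, 0 of 16 rose and 10 fell (62.5%, against 17.7% of all genes called), with a median of -1.42. The count was the same without combined replicate 3, where 33.8% of all genes were called. DDIT4 fell from 1222 to 145 FPKM (-3.09) and CHAC1, a glutathione-degrading enzyme induced through ATF4, from 38.0 to 2.19 (-3.64), both at an adjusted p of 2.01e-06.

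The 3 lists of the secretory pathway were read in the same way for OTA in the fit of all 12 libraries. Of 24 genes of translocation into the ER, 0 rose and 1 fell (4.17%, against 17.7% of all genes). In ER to Golgi transport, 2 rose and 2 fell of 24, and in N-glycosylation 2 and 2 of 24. Both were 16.7%, near the share of all genes. The medians of the 3 lists were 0.18, 0.21 and 0.28. Their counts without combined replicate 3 were 9 (37.5%), 11 (45.8%) and 12 of 24, where 33.8% of all genes were called. With CW14 alone, 0 of the 160 genes were called by limma, where 0.364% of all genes were. Of the 160, 13 had an unadjusted p under 0.05, a count not made over all genes and not read as a result. Without combined replicate 3 only 2 genes, of the PERK and ATF4 list, were called (1.25%, against 0.951% of all genes). Between combined and OTA, 6 of the 160 rose (3.75%) and 24 fell (15.0%), where 7.79% and 8.22% of all genes did; without combined replicate 3, 7 rose and 36 fell. Of these, 10 of the 24 ER to Golgi genes fell and 0 rose (median -0.30), and 1 rose and 10 fell without combined replicate 3. They were led by LMAN1, a cargo receptor of that route, at 120 FPKM with OTA and 46.9 in combined (-1.46, adjusted p = 0.00993, and -1.01 without combined replicate 3). In the chaperone list, 1 rose and 4 fell, or 0 and 5 without that library, with ERO1L, an ER oxidase, falling from 178 to 81.2 FPKM (-1.13, adjusted p = 0.00297, and -1.01 without it). Leaving it out took the count from 6 to 10 in the translocation list and from 4 to 8 in the degradation list, where 21.2% of all genes were called in place of 16.0%.

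**Figure D5:**
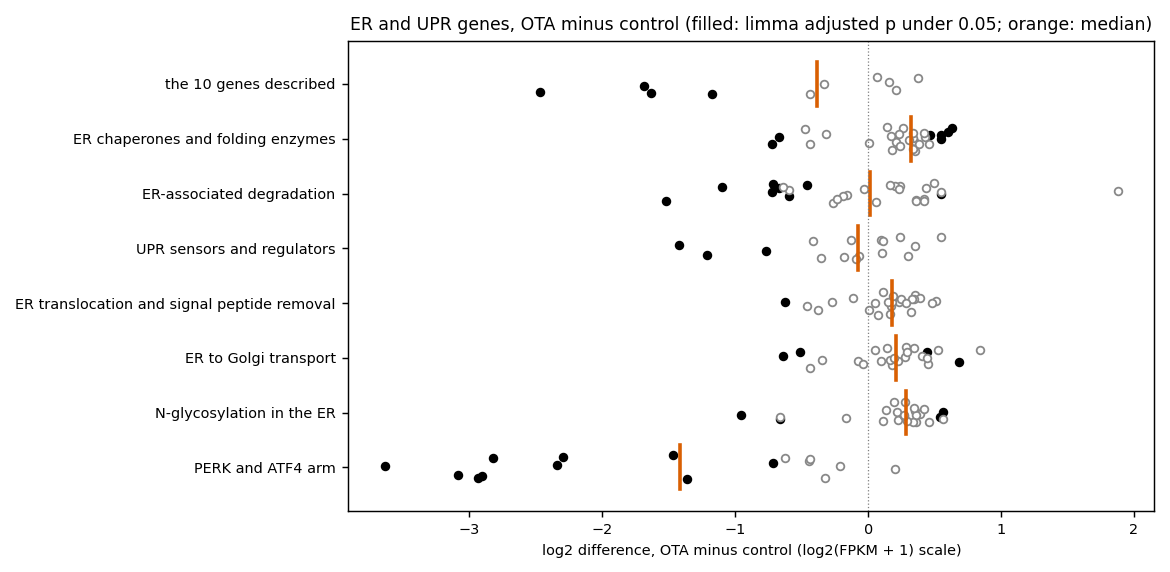
Log2 difference, OTA minus control, of each tested gene (points) in the 10 genes described and in 7 lists of ER and UPR genes, filled where limma's adjusted p was under 0.05, with the median of each list in orange. The medians run from -1.42 in the PERK and ATF4 arm to 0.32 in the ER chaperones and folding enzymes, and 4 of the 10 genes described are filled, all below 0.

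The genes whose pattern over the 12 libraries was most like that of HSPA5 were BAG3 (Pearson r 0.990), DNAJB1 (0.987), FOS (0.977), ADM (0.975) and RGS2 (0.972), on the log2(FPKM + 1) scale. BAG3 and DNAJB1 encode co-chaperones of cytosolic Hsp70, and DNAJB1 went from 436 FPKM in control to 182 with CW14, 77.5 with OTA and 44.2 in combined. For HERPUD1 they were IER2 (0.993), EGR1 (0.991), CHAC1 (0.990), EZR (0.989) and RASD1 (0.988). EGR1, an immediate early transcription factor, was at 270 FPKM in control, 205 with CW14, 21.9 with OTA and 21.1 in combined. The points of these correlations share their libraries and groups, and the values are a description. None of the 10 nearest genes was an ER chaperone of the lists above.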

How the data were processed

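RNA of 12 Caco-2 libraries was read as 150-base pairs; the strand setting of the counting is not given in the sources used here. Values deposited by the authors are FPKM per gene and library. The submitters' processing notes list TopHat2 2.0.13, Cufflinks 2.2.1, Cuffdiff, Cuffnorm and cutadapt 1.10, with build hg19; their roles are not stated, and neither are annotation and scaling. Loci are as deposited, with no statement of whether starts count from 0 or 1. Absolute depth is unknown; relative depth came from the steps between low values (under 0.3 FPKM). Groups came from sample titles.

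The authors' FPKM were tested with limma 3.58.1 (R 4.3.3) on log2(FPKM + 1), pseudocount 1, over 12928 genes whose mean reached 1 FPKM, with 1 mean per group over all 12 libraries, eBayes with trend, 8 residual degrees of freedom, two-sided, and Benjamini-Hochberg adjustment over all genes tested. Fold changes understate those of low genes. The script was tested on simulated data. The 10 genes and the lists were chosen with earlier results of these data known. All 10 genes are named; of other lists, called genes with the 2 largest rises and falls may be, and the 5 genes most like HSPA5 and HERPUD1. There were 24 alternative settings.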

Additional observations from a re-analysis of the deposited data

How the results depend on the processing

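Of the single-gene differences recomputed under 24 alternatives, 1319 kept their direction and side of the threshold, 49 lost a call, 51 gained one and 11 changed sign. The number of the 10 genes called moved as follows. With a mean FPKM of at least 5, the interaction gave 1. With quantile normalization, CW14 against control gave 0, combined against OTA 2 and the interaction 2; with upper-quartile scaling the interaction gave 1. Array weights gave 8 for OTA against control, 4 for CW14 against control, 9 for combined against OTA and 8 for the interaction; their estimate did not converge and set 32.2 on combined replicate 1 and 0.0421 on combined replicate 3. Fitting only the compared groups gave 7 for OTA against control, 0 for combined against OTA, 4 for combined against control and 5 for combined against CW14. The cause was not tested.

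Leaving out each library in turn gave 4 to 7 genes for OTA against control (7 without combined replicate 3), 0 to 3 for CW14 against control, 2 to 7 for combined against OTA, 5 to 9 for combined against control, 7 to 9 for combined against CW14 and 0 to 3 for the interaction (3 without combined replicate 2 and without combined replicate 3). For CW14 against control the count was 0 without control replicate 1, 2 or 3 or CW14 replicate 3. For combined against OTA it was 2 without any OTA library and 7 without combined replicate 2.

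Signs changed for uncalled differences only. SEL1L in CW14 against control was 0.0047 with median-centring, 0.046 with quantile normalization, 0.045 with upper-quartile scaling, 0.030 with array weights, 0.023 without control replicate 3 0.023 without CW14 replicate 2, with leave-one-out values from -0.026 to 0.023. HERPUD1 in combined against OTA was 0.033 with array weights and 0.053 without OTA replicate 2 (leave-one-out values -0.19 to 0.053). CALR in OTA against control was -0.021 with quantile normalization and -0.00139 without OTA replicate 3 (leave-one-out values up to 0.13). SDF2L1 in combined against control was -0.15 without combined replicate 3 and up to 0.51 with another library left out.

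Over all genes, fitting only the compared groups gave 4621 calls for OTA against control in place of 2288, 70 for combined against OTA in place of 2070, 1596 for combined against control in place of 3729 and 1521 for combined against CW14 in place of 4179. Leaving out each library in turn gave 1299 (without OTA replicate 3) to 4364 (without combined replicate 3) for OTA against control, 4 (without control replicate 1) to 123 (without combined replicate 3) for CW14 against control in place of 47, and 653 (without OTA replicate 2) to 3388 (without combined replicate 2) for combined against OTA. It gave 2265 (without control replicate 1) to 4776 (without combined replicate 2) for combined against control, 2780 (without CW14 replicate 2) to 5297 (without combined replicate 2) for combined against CW14, and 17 (without control replicate 3) to 1595 (without combined replicate 3) for the interaction in place of 431. Array weights gave 333 to 8686 calls, and with no filter on low values CW14 against control gave 25 and the interaction 235. The share of calls that were higher, 27.2% for OTA against control, was 46.2% with median-centring, 40.2% with quantile normalization and 42.7% with upper-quartile scaling. It went from 48.6% to 36.7% for combined against OTA and from 55.5% to 39.5% for the interaction with median-centring, and from 41.8% to 54.9% for combined against control with upper-quartile scaling.

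Equal replicate numbers did not pair the libraries: over 18 same-numbered pairs the correlation of deviations from the group means was -0.150 to 0.154, over 0.1 in 1. With the replicate block the counts were 4, 1, 4, 6, 8 and 0 in the order above, so PDIA4 in combined against control was lost. The interaction then gave 286 calls over all genes in place of 431. With 3 libraries a group and depth unknown, small differences such as those of CALR and PDIA4 with OTA could not be resolved.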
